A study of Homo sapiens with 4 samples.

Results

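Chromosome 19 carried 169 peaks of a YAP antibody from Santa Cruz, 587 peaks of a YAP antibody named Avruch in the design text, and 2597 peaks of an antibody against TEAD1, as found by chromatin immunoprecipitation and sequencing (ChIP-seq) in H69 cells. The members were chosen by position: every peak of the 3 deposited lists that lies on the assembled chromosome 19 of build hg19, 3353 of 61551 peaks in all. Earlier results of these lists were known when the chromosome was picked, so its peak numbers are a description, and no test was made of them. H69 is an established human cell line, in the study an immortalised cholangiocyte line, that is, of bile duct origin. The groups are the antibodies, with 1 library each and no treatment or genotype: YAP Santa Cruz, YAP (Avruch), TEAD (TEAD1 in the design text) and an unrelated IgG, which is not analysed here. With 1 library per antibody there is no replicate error. The 95% intervals below are Wilson intervals for shares and exact intervals for densities and their ratios, and they cover counting error only, as if each peak were independent.

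YAP is a transcriptional coactivator that the Hippo kinases keep out of the nucleus, and it has no DNA-binding domain of its own. It reaches DNA mostly through the TEAD factors, of which TEAD1 is one, and much of this binding is known to lie at enhancers far from promoters. Chromosome 19 is known as the most gene-rich human chromosome and for tandem clusters of KRAB zinc finger genes, whose proteins silence transposable elements and whose own gene bodies often carry the heterochromatin mark H3K9me3. Its centromere is flanked by satellite DNA. Chromosome 18 is known to be gene-poor.

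The label of a gene-dense chromosome held in the annotation. RefSeq (GRCh38.p14) lists 1451 protein-coding genes on chromosome 19 and 270 on chromosome 18. Divided by the number of 1 Mb bins of hg19 that held a peak of any list, here called occupied Mb (58 on chromosome 19 and 77 on chromosome 18), this was 25.02 and 3.51 genes per occupied Mb, ranks 1 and 22 of 24 chromosomes. Of the 517 protein-coding genes with a ZNF number, 250 (48.4%) are on chromosome 19 and 9 on chromosome 18. Only gene numbers were taken from this annotation. Its build differs from that of the peaks, so no peak is assigned to a gene, and no peak sequence is shown.

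Peaks of all 3 antibodies were denser on chromosome 19 than on chromosome 18. TEAD1 peaks numbered 44.8 per occupied Mb on chromosome 19 (43.1 to 46.5) and 10.7 on chromosome 18 (9.98 to 11.5, 824 peaks), a ratio of 4.18 (3.87 to 4.53). Avruch peaks numbered 10.1 per Mb on chromosome 19 (9.32 to 11.0) and 1.79 on chromosome 18 (1.51 to 2.12, 138 peaks), a ratio of 5.65 (4.68 to 6.85). For Santa Cruz the densities were 2.91 (2.49 to 3.39) and 0.416 (0.284 to 0.587, 32 peaks), a ratio of 7.01 (4.78 to 10.6). In each list chromosome 19 ranked first of the 24 chromosomes by density. It held 6.84% of the Santa Cruz list (5.91 to 7.90), 5.80% of the Avruch list (5.36 to 6.27) and 5.30% of the TEAD1 list (5.11 to 5.51), while chromosome 18 held 1.30%, 1.36% and 1.68%.

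Set against genes in place of length, peaks were not more numerous on chromosome 19 than on chromosome 18 in any of the 3 lists. Chromosome 19 had 179 TEAD1 peaks per 100 protein-coding genes, rank 22 of 24, and chromosome 18 had 305, rank 7. Avruch peaks numbered 40.5 per 100 genes on chromosome 19 and 51.1 on chromosome 18, and Santa Cruz peaks 11.6 and 11.9. Over the 24 chromosomes, gene density and TEAD1 peak density had a Spearman's rho of 0.77, Avruch a rho of 0.56 and Santa Cruz a rho of 0.35. Without dense YAP blocks, short runs of many YAP peaks, TEAD1 had a rho of 0.79, Avruch of 0.75 and Santa Cruz of 0.59. These are descriptions of 24 chromosomes that share a library.

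**Figure D1:**
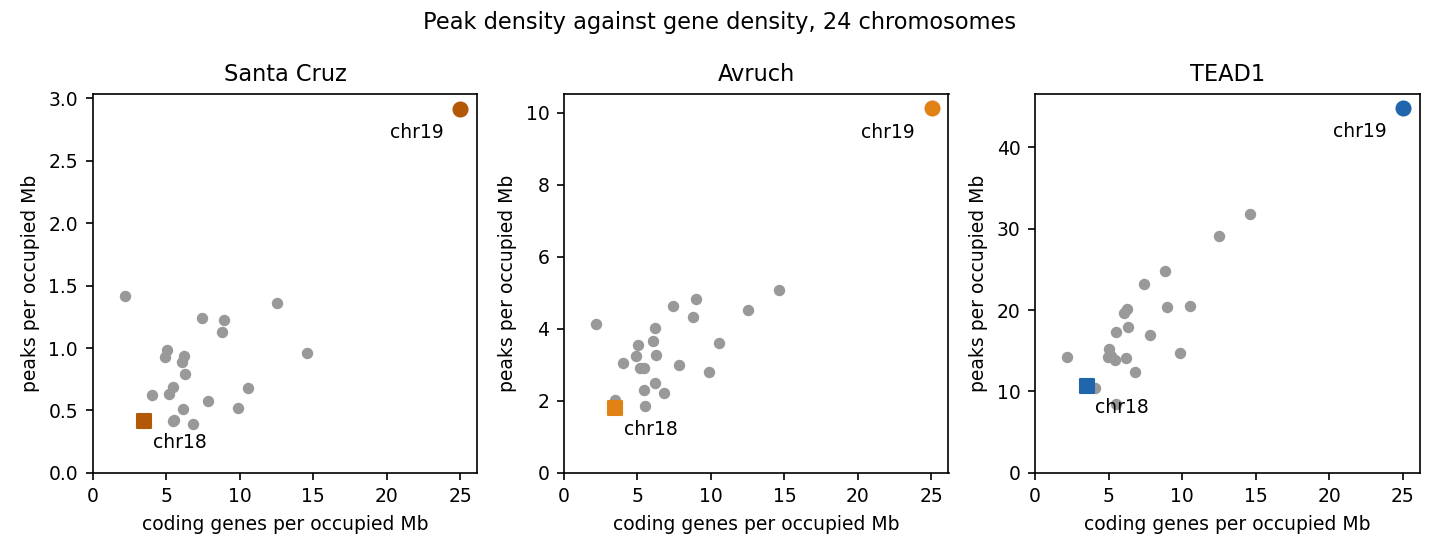
Peaks per occupied Mb (vertical) against protein-coding genes per occupied Mb (horizontal) for 24 chromosomes, with a panel for each list; chromosome 19 is the coloured circle, chromosome 18 the coloured square and the others are grey. Chromosome 19 lies at the top right of every panel, at 25.02 genes per Mb, and over all 24 chromosomes rho was 0.77 for TEAD1 and 0.35 for Santa Cruz (0.79 and 0.59 outside dense YAP blocks, not drawn).

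Within the chromosome, the YAP lists and the TEAD1 list were distributed differently. TEAD1 peaks were spread over nearly all of it: the occupied 1 Mb bins held 0 to 125 TEAD1 peaks with a median of 39, and 1 of the 58 bins held none. The median bin held 6.5 Avruch peaks (0 to 59) and 1 Santa Cruz peak (0 to 39), and 15 bins held no Santa Cruz peak. The 5 fullest bins held 53.8% of the chromosome's Santa Cruz peaks and 45.7% of its Avruch peaks, but 20.7% of its TEAD1 peaks.

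The fullest TEAD1 bins lay at the end of the short arm. The first 1 Mb and the second 1 Mb each held 125 TEAD1 peaks, and the third held 105. Together these 3 bins had 355 TEAD1 peaks (118 per Mb), 32 Avruch peaks and 9 Santa Cruz peaks. The TEAD1 peaks there were of ordinary strength, with a median score of 64.4 and a median width of 264 bp, against 67.2 and 275 bp on the rest of the chromosome. The score is the authors' own value per peak, has no stated unit, begins at 50 and is compared within a list alone. Of these 355 peaks, 10 overlapped a YAP peak (2.82%, 1.54 to 5.11), a share between that of TEAD1 peaks in the whole series (3.59%) and that on chromosome 19 outside the dense YAP blocks (1.74%). The next fullest TEAD1 bins, 48000001 to 49000000 with 93 peaks and 50000001 to 51000000 with 89, lay on the long arm and were also among the 5 fullest Avruch bins, with 55 and 58 Avruch peaks.

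Most peaks of the fullest YAP bins lay in 5 short blocks. Both YAP lists had most peaks in the bin from 36000001 to 37000000 (39 Santa Cruz, 59 Avruch and 53 TEAD1 peaks). The next bin, to 38000000, held 25, 53 and 33, and the bin from 8000001 to 9000000 held 12, 43 and 88. The last of the 5 fullest Santa Cruz bins, 27000001 to 28000000, held 6 peaks of each YAP list and no TEAD1 peak, and tied with the bin from 48000001 in Santa Cruz peaks. A dense YAP block was defined, after these bins had been seen, as 10 or more peaks of the pooled YAP lists in a row, none over 10 kb from the next. Chromosome 19 had 5 such blocks of 60 in all, and chromosome 18 had 1. The smallest of the 5 held 49 YAP peaks, while the longest run that missed the definition held 9, so the blocks stand well clear of the threshold.

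The 5 blocks spanned 223 kb together. They held 89 of 169 Santa Cruz peaks (52.7%, 45.2 to 60.05), 242 of 587 Avruch peaks (41.2%, 37.3 to 45.3) and 128 of 2597 TEAD1 peaks (4.93%, 4.16 to 5.83). In the whole series, dense blocks held 25.5% of Santa Cruz, 15.1% of Avruch and 1.2% of TEAD1 peaks. Since the blocks were drawn from the YAP lists, their YAP numbers are a description.

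The block richest in YAP peaks ran from 36759305 to 36800734, over 41.4 kb, with 39 Santa Cruz, 56 Avruch and 10 TEAD1 peaks. It had rank 4 of the 60 blocks by YAP peaks. TEAD1 peaks covered 99.5% of it, Avruch peaks 56.7% and Santa Cruz peaks 37.2%. Its TEAD1 peaks were few and wide, with a median of 2563 bp. One of them, from 36763068 to 36778954, was 15887 bp wide with a score of 3100, the highest and widest TEAD1 peak of the chromosome and at rank 4 of 48962 in its list. Neighbouring Avruch peaks in this block stood a median of 660 bp apart (middle 50% of distances 482.5 to 849 bp).

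The second block lay 1 Mb further on, from 37759610 to 37793928 (34.3 kb), with 23 Santa Cruz, 51 Avruch and 14 TEAD1 peaks. TEAD1 peaks covered 98.1% of it, with a median width of 1908 bp, and the highest score was 2826.67 (37772920 to 37779314). The strongest Santa Cruz peak inside any of the 5 blocks also lay here (37765808 to 37766616, score 200.28). Avruch peaks were again closely spaced, at a median of 642 bp.

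The other 3 blocks had narrower TEAD1 peaks and few Santa Cruz peaks. The block from 50594302 to 50642352 held 9 Santa Cruz, 49 Avruch and 32 TEAD1 peaks, and TEAD1 covered 67.4% of it. The block from 48406919 to 48460275 held 6, 49 and 47, with 60.3% covered by TEAD1. The block from 8851427 to 8897356, the one on the short arm, held 12, 37 and 25, with 41.8% covered. Median TEAD1 widths in these 3 were 725, 592 and 725 bp, and median distances between Avruch peaks were 757, 784.5 and 989 bp. Among the blocks the YAP lists thus differed in proportion: Santa Cruz gave 39 peaks to 56 of Avruch in the first, but 6 to 49 in the block from 48406919. Genes and repeats at these positions were not analysed here.

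**Figure D2:**
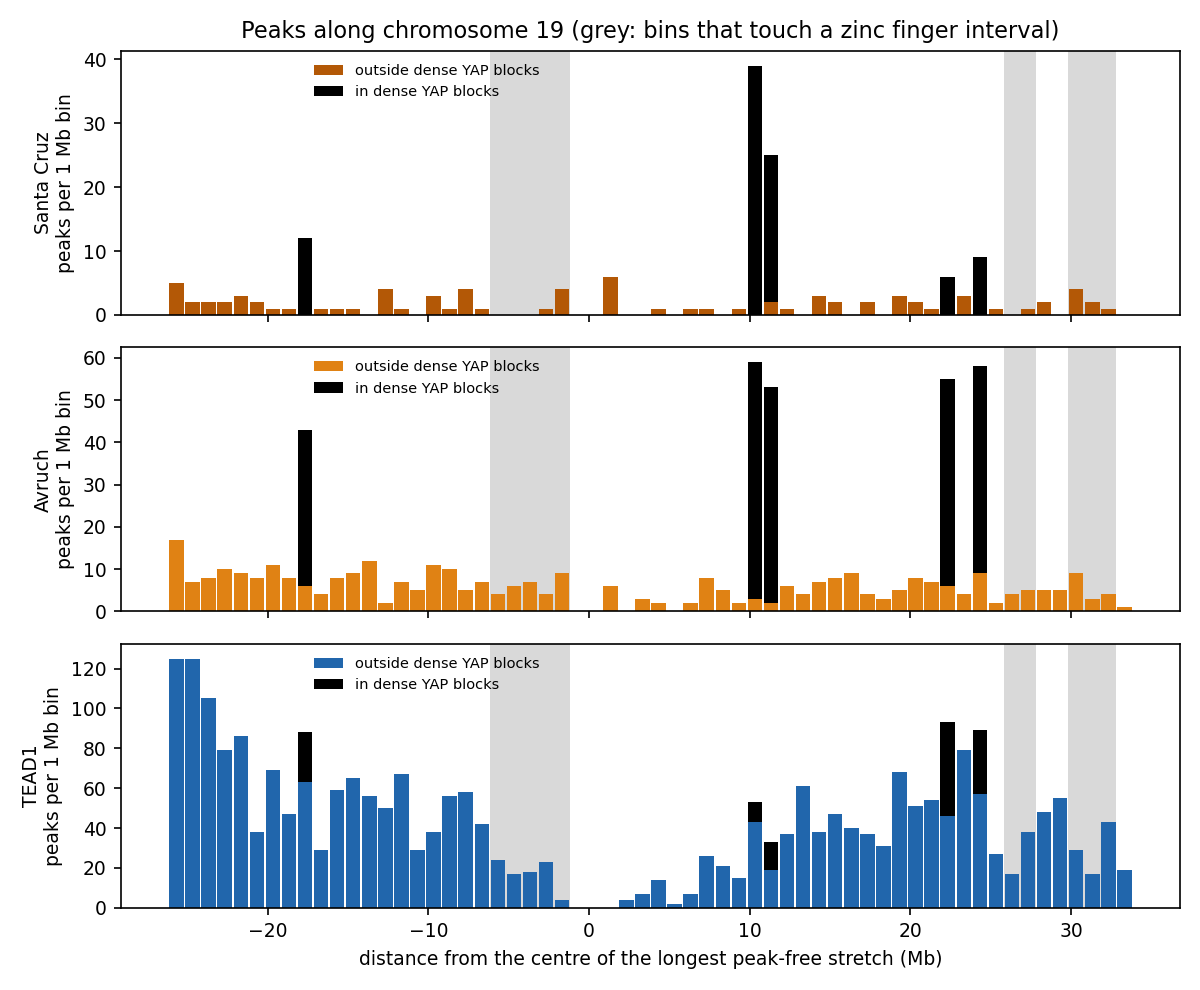
Peaks per 1 Mb bin of chromosome 19 (vertical) by distance in Mb from the centre of its longest peak-free stretch (horizontal, short arm at the left), with a panel for each list; black marks peaks in the 5 dense YAP blocks, and grey marks bins that touch a zinc finger interval. The tall YAP bins are nearly all black, up to 39 Santa Cruz and 59 Avruch peaks, whereas TEAD1 is highest at the left end, at 125.

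Outside the blocks, the densities on chromosome 19 remained above those on chromosome 18 in all 3 lists. Santa Cruz had 80 peaks on chromosome 19 (1.38 per Mb) and 23 on chromosome 18 (0.299 per Mb), a ratio of 4.62 (2.87 to 7.70). Avruch had 345 (5.95 per Mb) and 131 (1.70 per Mb), a ratio of 3.50 (2.85 to 4.31). TEAD1 had 2469 (42.6 per Mb) and 819 (10.6 per Mb), a ratio of 4.002 (3.697 to 4.34). Chromosome 19 kept rank 1 of 24 by density in every list, but for YAP the lead over the next chromosome was within counting error. For Santa Cruz, chromosome 15 had 1.13 per Mb, inside the interval of chromosome 19 (1.09 to 1.72). For Avruch, chromosome 17 had 5.08 per Mb (4.59 to 5.59), against 5.34 to 6.61 on chromosome 19. TEAD1 had 31.85 per Mb on chromosome 17, its next densest. The fullest bin of chromosome 19 outside the blocks held 6 Santa Cruz and 17 Avruch peaks. The variance of the bin counts over their mean was 1.496 and 1.75, against 12.9 and 19.2 with the blocks. For TEAD1 this quotient was 17.95 outside the blocks and 19.2 with them. Per 100 genes, chromosome 19 outside the blocks had the lowest Avruch number of the 24 chromosomes, 23.8, against 48.5 on chromosome 18.

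Bin counts of the lists followed each other moderately. Over the 58 bins, Spearman's rho was 0.58 between Avruch and TEAD1, 0.50 between the YAP lists and 0.41 between Santa Cruz and TEAD1. Outside the blocks these were 0.54, 0.28 and 0.25. The bins share libraries and gene density, so the values are descriptions.

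The longest stretch without a peak of any list ran from 24628640 to 27731774, 3.10 Mb, between the arms. Whether it is assembled or mappable in hg19 was not examined, so its lack of peaks is not read as a lack of binding. The long-arm edge of the stretch held the highest-scoring YAP peaks of the chromosome and no TEAD1 peak within 100 kb. The leading Santa Cruz peak there was 5463 bp wide (27735166 to 27740628, score 330.51), and the next began at the edge itself (27731775 to 27733747, score 212.37). Avruch led with 27731776 to 27733733 (1958 bp, score 835.12, rank 26 of 10118), followed by 27736134 to 27737845 (score 454.23) and 27737886 to 27739031 (score 371.69). All 5 peaks overlapped a peak of the other YAP list and none overlapped TEAD1. The widest Avruch peak of the chromosome, 2307 bp from 27733788 to 27736094, lay between them. On the short-arm edge a run of 3 Santa Cruz and 6 Avruch peaks, from 24608736 to 24628639, was the run of 9 that just missed the block definition.

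The zinc finger intervals held fewer peaks per Mb than the rest of the chromosome in all 3 lists, but for YAP most of this difference went with the blocks, and for TEAD1 they were not the sparsest region. The intervals, set by position alone, are 20000001 to 24500000 (A), 52500001 to 54000000 (B) and 56000001 to 59000000 (C), 9 Mb together, and none holds a dense YAP block. TEAD1 peaks numbered 24.2 per Mb in the intervals (218 peaks, 21.1 to 27.7) and 50.1 per occupied Mb in the rest (48.1 to 52.1), a ratio of 0.484 (0.419 to 0.556). With the blocks left out of the rest, the ratio was 0.511 (0.443 to 0.588). Avruch peaks numbered 5.44 per Mb in the intervals (49 peaks, 4.03 to 7.20) and 11.3 in the rest (10.4 to 12.3), a ratio of 0.481 (0.351 to 0.645). Outside the blocks the Avruch ratio was 0.874 with an interval that includes 1 (0.632 to 1.19). Santa Cruz peaks numbered 1.00 per Mb in the intervals (9 peaks, 0.457 to 1.90) and 3.37 in the rest (2.87 to 3.93), a ratio of 0.297 (0.133 to 0.578). Outside the blocks the Santa Cruz ratio was 0.669 (0.294 to 1.34).

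The rest of the chromosome was uneven too. Its 9 bins from 27000001 to 36000000, picked after the bin counts were seen, held 0 to 26 TEAD1 peaks each, 96 together (10.7 per Mb, 8.64 to 13.0), below each of the zinc finger intervals. The 9 bins held 28 Avruch peaks (3.11 per Mb) and 10 Santa Cruz peaks (1.11 per Mb). The bin from 27000001 lies partly in the longest peak-free stretch, which ends at 27731774, but was counted as a full Mb.

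The intervals were not alike. Interval A, beside the centromere, had 86 TEAD1 peaks (19.1 per Mb, 15.3 to 23.6), 24 Avruch peaks and 1 Santa Cruz peak. TEAD1 density in the 2 Mb before interval A was 50 per Mb, while its 1 Mb bins from 20000001 on held 24, 17, 18 and 23 TEAD1 peaks. The occupied 0.5 Mb after interval A, at the peak-free stretch, held no TEAD1 peak, 6 Avruch and 4 Santa Cruz peaks. Interval B had 43 TEAD1 peaks (28.7 per Mb, 20.7 to 38.6), 9 Avruch peaks and 1 Santa Cruz peak, between flanks of 2 Mb with 43.5 TEAD1 peaks per Mb before and 51.5 after. The flank before B includes a dense YAP block, and without the block it had 27.5 TEAD1 peaks per Mb, no more than B itself. Interval C, near the end of the long arm, had 89 TEAD1 peaks (29.7 per Mb, 23.8 to 36.5), 16 Avruch and 7 Santa Cruz peaks. The Santa Cruz densities of C and A rest on 7 peaks and 1 peak, and their intervals (0.938 to 4.81 and 0.00563 to 1.24 per Mb) overlap.

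No peak within the intervals was wide, and few were wide in the rest outside the blocks. None of the 276 reached 1 kb, against 54 TEAD1, 6 Avruch and 2 Santa Cruz peaks in the rest. Of these, 6, 4 and 2 lay outside the blocks (0.267%, 1.35% and 2.82% of the peaks there). At shares this small, few or no wide peaks would be found among the 218, 49 and 9 peaks of the intervals. Median TEAD1 width was 252.5 bp in the intervals and 270 bp in the rest outside the blocks, and median TEAD1 score 63.5 and 65.8. Median Avruch widths were 141 and 147 bp there, and median Santa Cruz widths 162 and 159 bp. Among TEAD1 peaks in the intervals, 2 of 218 (0.917%, 0.252 to 3.28) reached the strongest 5% of the list, against 126 of 2379 in the rest (5.30%, 4.47 to 6.27). In the rest outside the blocks 88 of 2251 did (3.91%, 3.18 to 4.79), an interval that overlaps that of the zinc finger intervals. One of the 2 in the intervals, from 23737040 to 23737798 in interval A, was 759 bp wide and had a score of 2461.69. It had rank 39 of 48962 in its list and 4 on the chromosome. It lay in a run of 4 TEAD1 peaks and overlapped no YAP peak. The highest TEAD1 scores in B and C were 201.97 (52551792 to 52552295) and 246.47 (56662246 to 56663088). The TEAD1 peak in C overlapped the strongest Santa Cruz peak of the intervals (56662679 to 56662945, score 97.08) but no Avruch peak. The leading Avruch peaks were 20249177 to 20249397 in A (score 123.31), 52948598 to 52948712 in B (76.82) and 57210220 to 57210347 in C (78.04), of which the last overlapped TEAD1. The leading Santa Cruz peaks of A (23196733 to 23196863, score 60.16) and B (53638795 to 53638917, score 59.18) overlapped no TEAD1 peak, and the one in B overlapped an Avruch peak.

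**Figure D3:**
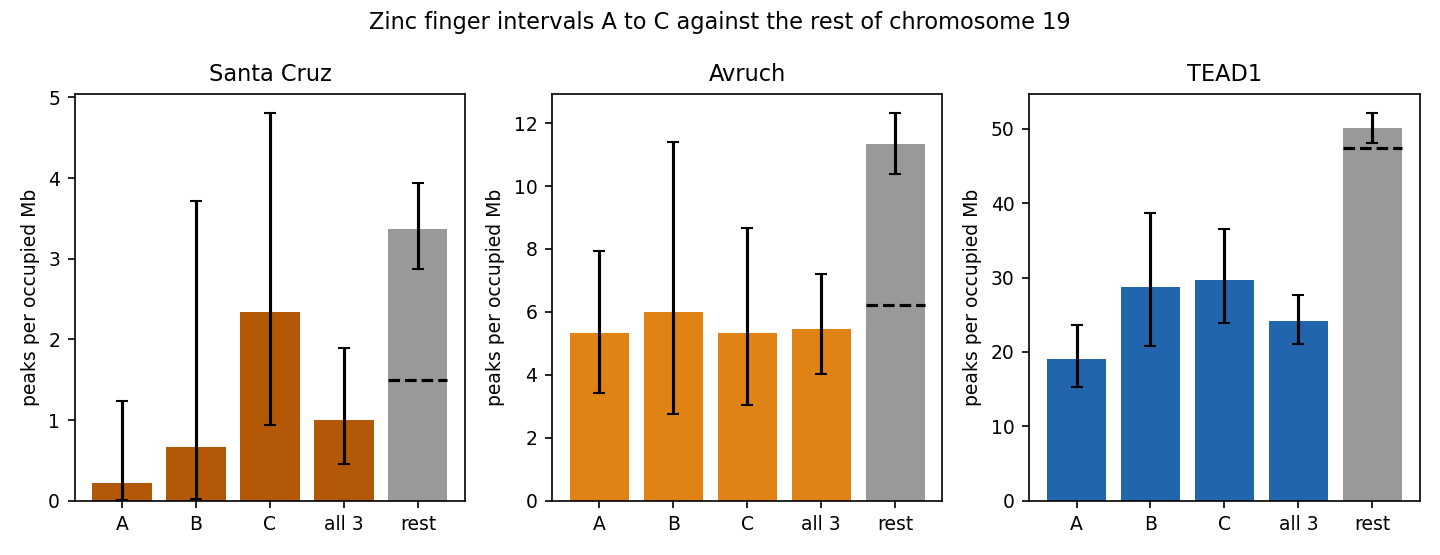
Peaks per occupied Mb in zinc finger intervals A, B and C, in all 3 together and in the rest of chromosome 19, with a panel for each list; error bars are exact Poisson 95% intervals and the dashed line is the rest without the dense YAP blocks. Avruch density was 5.44 in the intervals, 11.3 in the rest and 6.23 in the rest outside the blocks, whereas the TEAD1 values were 24.2, 50.1 and 47.4.

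Sharing between the lists was higher on chromosome 19 than in the whole series. Of the Santa Cruz peaks, 91 of 169 overlapped an Avruch peak by at least 1 bp (53.8%, 46.3 to 61.2), where the share over the whole series was 28.2% and on chromosome 18 it was 7 of 32 (21.9%, 11.0 to 38.8). Avruch peaks overlapped a Santa Cruz peak in 107 of 587 cases (18.2%, 15.3 to 21.6), against 8.16% in the whole series. TEAD1 peaks overlapped 97 of 169 Santa Cruz peaks (57.4%, 49.9 to 64.6, whole series 30.9%, chromosome 18 37.5%) and 253 of 587 Avruch peaks (43.1%, 39.2 to 47.1, whole series 19.4%, chromosome 18 17.4%). In the other direction, 141 of 2597 TEAD1 peaks met a peak of at least 1 of the YAP lists (5.43%, 4.62 to 6.37, whole series 3.59%, chromosome 18 3.16%). A YAP peak of both antibodies lay on 47 TEAD1 peaks (1.81%, 1.36 to 2.40, whole series 0.66%).

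Most of the shared peaks lay in the 5 blocks. The blocks held 82 of the 91 Santa Cruz peaks shared with Avruch (90.1%, 82.3 to 94.7), 87 of the 97 shared with TEAD1 and 217 of the 253 Avruch peaks shared with TEAD1 (85.8%, 80.9 to 89.5). They also held 44 of the 47 TEAD1 peaks with both YAP lists. Inside the blocks, 92.1% of Santa Cruz peaks overlapped Avruch, 97.8% overlapped TEAD1, and 89.7% of Avruch peaks overlapped TEAD1. TEAD1 peaks covered 41.8% to 99.5% of each block, and the part of this coverage in the sharing was not tested. With peaks of at least 1 kb left out of both lists, TEAD1 overlapped 16.7% of the chromosome's Avruch peaks (13.9 to 19.9) and 15.0% of its Santa Cruz peaks (10.4 to 21.2). All of the 8 highest-scoring TEAD1 peaks with both YAP lists lay in the first and second blocks, with scores of 1251.03 to 3100 and widths of 2448 to 15887 bp.

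Outside the blocks, sharing on chromosome 19 was lower with TEAD1 and higher between the YAP lists than on the other chromosomes outside their blocks, mostly with intervals that overlap. Santa Cruz peaks overlapped Avruch in 9 of 80 cases (11.2%, 6.03 to 20.02), against 9.48% elsewhere (8.20 to 10.9). Avruch peaks overlapped Santa Cruz in 13 of 345 cases (3.77%, 2.22 to 6.34), against 2.16% elsewhere (1.87 to 2.496). Santa Cruz peaks overlapped TEAD1 in 10 of 80 cases (12.5%, 6.93 to 21.5), against 18.4% elsewhere (16.6 to 20.3). Avruch peaks overlapped TEAD1 in 36 of 345 cases (10.4%, 7.63 to 14.1), against 14.4% elsewhere (13.6 to 15.1) and 13.7% on chromosome 18 (8.87 to 20.7). TEAD1 peaks carried a YAP peak in 43 of 2469 cases (1.74%, 1.30 to 2.34), against 2.89% elsewhere (2.74 to 3.05), and here the intervals do not overlap. The blocks are drawn from the YAP lists, so leaving them out removes YAP sharing by construction where a chromosome has blocks, and removes none where it has no block.

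**Figure D4:**
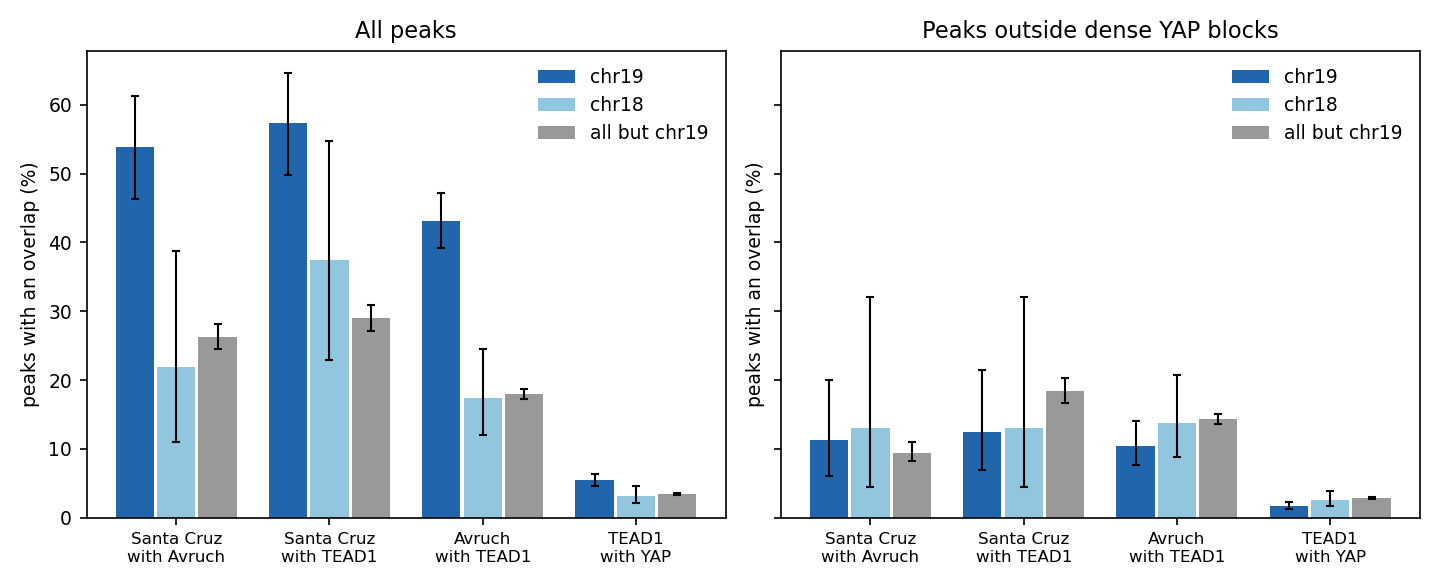
Percent of peaks with an overlap of at least 1 bp, for 4 pairs of lists on chromosome 19, on chromosome 18 and on all chromosomes but 19, for all peaks (left) and for peaks outside dense YAP blocks (right); error bars are Wilson 95% intervals. For Avruch with TEAD1 the chromosome 19 bar is at 43.1% on the left and at 10.4% on the right.

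Outside the blocks, 3 of 2469 TEAD1 peaks carried both YAP lists (0.122%, 0.0413 to 0.357). The share outside blocks was 0.242% on all chromosomes but 19 (0.201 to 0.291) and 0.122% on chromosome 18. The 3 peaks lay at 3649103 to 3650035 (933 bp, TEAD1 score 530), 41010342 to 41010709 (368 bp, 241.31) and 57454234 to 57454406 (173 bp, 177.16), the last in zinc finger interval C. The Avruch peak at the first of them (3649516 to 3649868, score 146.43) was the strongest Avruch peak outside the blocks and away from the peak-free stretch. The 5 strongest TEAD1 peaks outside the blocks carried no YAP peak, like 98.3% of all TEAD1 peaks of the chromosome outside the blocks. After the one in interval A these were 45879331 to 45880072 (score 2380.98), 2200634 to 2201418 (1596.87), 13964098 to 13964707 (1463.64) and 782303 to 783018 (1432.32), each 610 to 785 bp wide. Both sets outside the blocks were named after their values had been seen.

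YAP peaks outside the blocks, with or without an overlap, lay closer to TEAD1 on chromosome 19 than on chromosome 18, where TEAD1 peaks are sparser. The nearest TEAD1 midpoint was a median of 5.42 kb from an Avruch peak on chromosome 19 and 19.2 kb on chromosome 18, and 65.2% and 37.4% of Avruch peaks had one within 10 kb. For Santa Cruz the medians were 7.25 kb and 15.1 kb. Peaks found in no other list made up 64 of the 80 Santa Cruz peaks outside the blocks (80.0%) and 299 of the 345 Avruch peaks (86.7%), close to the 78.3% and 84.0% outside the block of chromosome 18. The shares on chromosome 18 rest on 23 Santa Cruz and 131 Avruch peaks, and those over the whole series were not computed. Inside the blocks of chromosome 19, peaks found in no other list were 0 of 89 Santa Cruz and 22 of 242 Avruch peaks (9.09%).

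Within the zinc finger intervals sharing was rarer than in the rest of the chromosome with its blocks, and within counting error of the rest without them. TEAD1 overlapped 4 of 49 Avruch peaks (8.16%, 3.22 to 19.2), against 249 of 538 in the rest of the chromosome (46.3%, 42.1 to 50.5) and 32 of 296 there outside the blocks (10.8%, 7.76 to 14.9). It overlapped 3 of 9 Santa Cruz peaks in the intervals (33.3%, 12.1 to 64.6), against 94 of 160 in the rest (58.8%, 51.0 to 66.1) and 7 of 71 there outside the blocks (9.86%, 4.86 to 18.98). Avruch overlapped 2 of 9 Santa Cruz peaks in the intervals (22.2%, 6.32 to 54.7), against 89 of 160 in the rest (55.6%, 47.9 to 63.1) and 7 of 71 there outside the blocks. For Santa Cruz the direction thus turned with the blocks left out, on 9 peaks in the intervals. TEAD1 peaks carried a YAP peak in 5 of 218 cases in the intervals (2.29%, 0.984 to 5.26), against 5.72% in the rest (4.85 to 6.72) and 1.69% there outside the blocks (1.23 to 2.31).

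TEAD1 peaks were clustered more often on chromosome 19. A cluster was taken as 3 or more peaks in a row, none over 10 kb from the next. Clusters held 1365 of 2597 TEAD1 peaks (52.6%, 50.6 to 54.5) in 273 clusters, against 29.3% of TEAD1 peaks in the whole series and 126 of 824 on chromosome 18 (15.3%, 13.0 to 17.9, 37 clusters). The largest cluster held 50 peaks on chromosome 19, 6 on chromosome 18 and 68 on the other chromosomes. Runs depend on density, and the median distance between neighbouring TEAD1 peaks was 9.53 kb on chromosome 19, just under the allowed gap, and 43.1 kb on chromosome 18. Outside the YAP blocks the clustered share was 50.1% on chromosome 19 and 14.8% on chromosome 18. In the zinc finger intervals it was 31.7% (25.8 to 38.1), against 54.5% in the rest of the chromosome (52.5 to 56.5), and in the first 3 Mb of the short arm it was 81.7% (77.3 to 85.4).

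The 3 clusters with most peaks were of different kinds. The largest, 50 TEAD1 peaks over 61.0 kb from 48407127 to 48468161, coincided with a YAP block: it met 49 Avruch and 6 Santa Cruz peaks, and its TEAD1 peaks had a median width of 588 bp. The second, 35 peaks over 55.3 kb from 50589212 to 50644483, coincided with another block, with 49 Avruch and 9 Santa Cruz peaks and a median width of 720 bp. The third, 30 peaks over 105 kb from 583180 to 688591 near the end of the short arm, met no YAP peak, and its TEAD1 peaks were narrow (median 252 bp) and weak (median score 64.6, highest 161.47). Clustered TEAD1 peaks carried a YAP peak in 125 of 1365 cases (9.16%, 7.74 to 10.8), against 16 of 1232 for other TEAD1 peaks (1.30%, 0.801 to 2.10). Outside the blocks these shares were 2.18% (1.504 to 3.16) and 1.30%, and their intervals overlap.

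**Figure D5:**
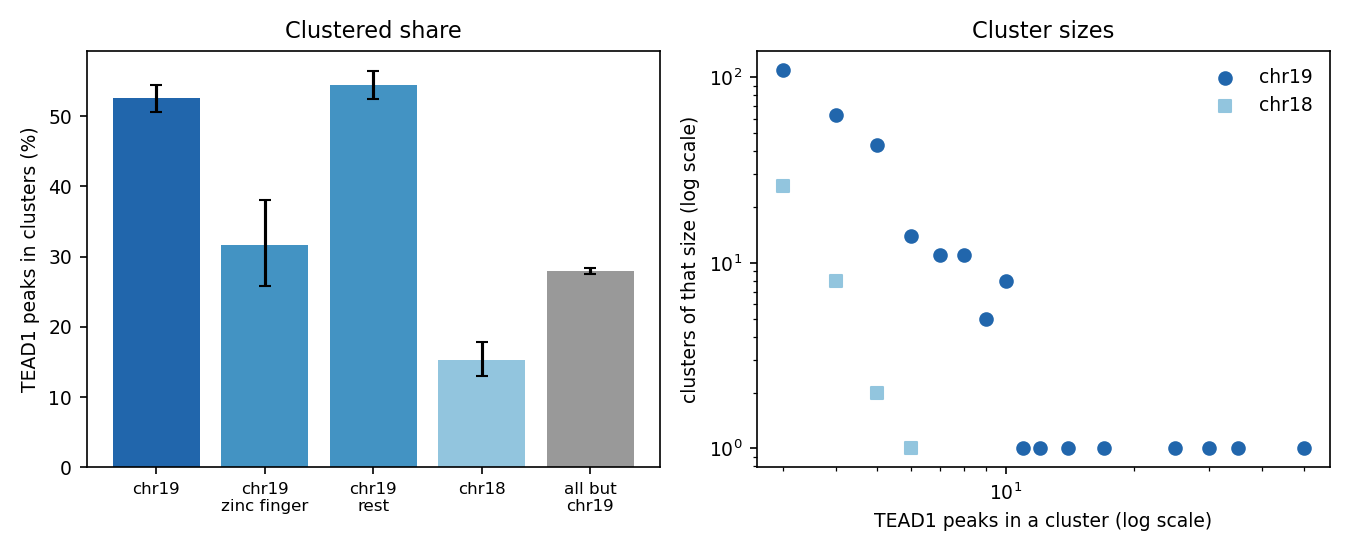
Left, percent of TEAD1 peaks in clusters on chromosome 19, in its zinc finger intervals, in its rest, on chromosome 18 and on all chromosomes but 19, with Wilson 95% intervals; right, the number of clusters of each size on chromosomes 19 and 18, both axes logarithmic. Chromosome 19 stands at 52.6% and chromosome 18 at 15.3%, and clusters of more than 6 peaks appear for chromosome 19 alone, up to 50.

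Widths and median scores on the chromosome divided by the blocks in all 3 lists, and the share in the strongest 5% did so for Avruch and TEAD1 alone. Median Avruch width was 336.5 bp in the blocks and 146 bp on the rest of chromosome 19, and median Santa Cruz width 362 and 159 bp. TEAD1 peaks had a median width of 733 bp in the blocks and 268 bp outside, and 48 of the chromosome's 54 TEAD1 peaks of at least 1 kb lay in the blocks. Of the Avruch peaks on chromosome 19, 53 of 587 reached the strongest 5% of their list (9.03%, 6.97 to 11.6), of which 47 lay in the blocks and 6 among the 345 outside (1.74%, 0.799 to 3.74). For TEAD1 the share was 38 of 128 in the blocks (29.7%, 22.5 to 38.1) and 90 of 2469 outside (3.65%, 2.98 to 4.46). Santa Cruz had 2 of 89 in the blocks (2.25%) and 2 of 80 outside (2.50%).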

How the data were processed

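Peaks were compared for 3 ChIP-seq libraries of H69 cells, 1 per antibody. Reads were aligned with Bowtie2 to hg19, per the submitters' processing notes. The deposited lists have 5 columns and no header, and their peak names carry MACS. The version, settings and control library of the peak caller were not given in the sources used here, and read depth is unknown, so peak numbers do not rank the antibodies. The authors' deposited score, 1 value per peak, has no stated unit. The other deposited columns hold the authors' start and end positions, printed here 1-based.

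Peaks were put in bins and intervals by midpoint. Bins of 0.5 Mb were used for the zinc finger intervals and their rest. For sharing within a region, peaks of the first list inside it were set against the whole other list. Python 3.11.15, pandas 2.3.3 and scipy 1.17.1 were used, and the overlap and run routines were tested on simulated data. The block routine was run on simulated data too, but its result was not required to match the planted one. The chromosome, intervals and comparisons were chosen with earlier results of these data known. Regions named were the 5 fullest bins, the 3 highest-scoring peaks and the widest per list, the 3 largest clusters, the leading peak per interval and up to 8 TEAD1 peaks with both YAP lists. Alternatives were other gaps, overlaps, bins and filters. Dense YAP blocks were defined after the lists had been seen. No hg19 genome or annotation was used here.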

Additional observations from a re-analysis of the deposited data

Results flagged for a closer look

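Between the arms of chromosome 19, the YAP lists and TEAD1 leaned in opposite directions. Peaks per occupied Mb before the longest peak-free stretch (short arm) over those after it (long arm) gave a ratio of 0.587 for Santa Cruz (2.08 and 3.55 per Mb) and 0.857 for Avruch (9.24 and 10.8 per Mb, interval 0.723 to 1.01), but 1.54 for TEAD1 (55.9 and 36.4 per Mb). The difference between the antibodies was not tested, as each has 1 library. Outside the 5 dense YAP blocks, of which 4 lie on the long arm, the ratios were 1.32 (0.830 to 2.10), 1.70 (1.36 to 2.11) and 1.65 (1.52 to 1.79).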

How the results depend on the processing

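Among 96 alternative values for 24 results, 52 moved by less than counting error. Among these 24 results, no density ratio moved to the other side of 1, and no rank correlation changed sign. Of their density ratios, the Avruch ratio of zinc finger intervals to the rest came nearest to 1, at 0.874 without dense YAP blocks (0.632 to 1.19). Ratios between the arms and ratios of single intervals were not among the 24, and some of them crossed 1 without the blocks. The arm ratio went from 0.587 to 1.32 for Santa Cruz and from 0.857 to 1.70 for Avruch. The Santa Cruz ratio of interval C to the rest went from 0.693 to 1.56 (0.606 to 3.39). Shares of peaks have no point at which they reverse, so for them only the size of the move was judged. Of the alternatives, 23 values, all on dense YAP blocks, were chosen after seeing the data. No paired analysis was possible because each antibody has 1 library. Where no construction is named, the cause was not tested.

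Leaving out the blocks removes YAP peaks and their sharing by construction. The chromosome 19 share of peaks was then 4.34% (Santa Cruz), 4.02% (Avruch) and 5.10% (TEAD1), and the density ratio to chromosome 18 was 4.62 and 3.50 for the YAP lists. The ratio of zinc finger intervals to the rest was 0.669 (Santa Cruz) and 0.874 (Avruch). Sharing was 11.2% (Santa Cruz with Avruch), 12.5% (Santa Cruz with TEAD1), 10.4% (Avruch with TEAD1) and 1.74% (TEAD1 with YAP), and 50.1% of TEAD1 peaks were clustered. The same number of blocks, 5, was found with gaps of 5 and 20 kb.

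With the 50% highest scores kept, the chromosome 19 share was 8.34% (Santa Cruz) and 6.76% (Avruch), the zinc finger ratio of Avruch 0.276 and the clustered share 28.9%. With gaps of at most 1 kb joined, the chromosome 19 share was 5.82%, 4.30% and 5.04% in the Santa Cruz, Avruch and TEAD1 lists, and the clustered share 42.0%. Cluster gaps of 5 and 20 kb gave clustered shares of 30.9% and 76.6%. The zinc finger ratio of Santa Cruz was 0.0990 without interval C and 0.528 (0.224 to 1.07) without interval A, and without interval A that of TEAD1 was 0.586. Bins of 2 Mb gave rank correlations of 0.69 (YAP lists), 0.46 (Santa Cruz and TEAD1) and 0.76 (Avruch and TEAD1). Bins of 0.5 Mb gave lower values than those of 1 Mb for these pairs, 0.30, 0.29 and 0.47 in the same order.

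Sharing depended on its definition, in the order Santa Cruz with Avruch, Santa Cruz with TEAD1, Avruch with TEAD1 and TEAD1 with YAP. It was 26.6%, 5.33%, 7.16% and 1.69% when 50% of both peaks had to overlap, 41.4%, 17.2%, 16.2% and 4.04% with windows of 200 bp, and 41.4%, 42.0%, 47.1% and 30.0% with lists of equal length. With wide peaks left out, the last 3 were 15.0%, 16.7% and 3.696%. In the zinc finger intervals, the 50% overlap gave 11.1%, 2.04% and 0.459% for these 3 pairs.

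Read depth is unknown, so the lengths of the lists, and the absence of a peak in a region, cannot be set against sequencing effort.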
